A study of Mus musculus with 69 samples.

Results

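The macrophage inflammatory CC chemokines are a small group of genes, here Ccl3, Ccl4, Ccl5, Ccl6 and Ccl9, together with Ccr1, a receptor that most of them use. Their probes were found by matching the transcript identifier printed for each spot to a gene symbol, which gave all 6 genes among the 18749 genes that were matched to a probe. Each gene was read by 1 probe. The probes of the 5 chemokines were well above background in the lung channel on all 69 arrays. The Ccr1 probe was well above background on 0 of the 69 arrays, so Ccr1 was left out of the 17639 genes that were tested and has no level here.

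The lungs came from female C57BL/6 mice, 5 to 7 weeks old when they arrived, which were given a single intratracheal instillation of titanium dioxide nanoparticles or of the vehicle. The particle NRCWE-001 has an unmodified surface, and that of NRCWE-002 is positively charged. There were 5 mice at each of 18, 54 and 162 µg of each particle on day 1 and again on day 28, with 5 vehicle mice on day 1 and 4 on day 28. The vehicle is called H2O in the sample titles and 2% serum in water in the series design, and all exposed mice received that vehicle too. RNA of a piece of lung from each mouse was labelled with Cy5 and set against 1 common mouse reference RNA, labelled with Cy3, on an array of its own. No dyes were swapped, so only differences between groups are compared below.

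CC chemokines are small secreted proteins that draw leukocytes along a gradient by binding receptors on their surface. After contact with particles or microbial products macrophages secrete Ccl3 and Ccl4 (macrophage inflammatory proteins), which act on monocytes, macrophages and lymphocytes through receptors such as CCR1. Ccl6 and Ccl9 are rodent chemokines made by myeloid cells and bind CCR1, while Ccl5 (RANTES) is made largely by T cells and natural killer cells and binds CCR1 and CCR3.

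The 5 chemokine genes lie side by side on chromosome 11, in the order Ccl5, Ccl9, Ccl6, Ccl3 and Ccl4, with no other protein-coding gene between them, and Ccr1 lies on chromosome 9 beside Ccr1l1. RefSeq promoter sequences of build GRCm38.p6, from 250 bases before the start of each gene to 50 bases after it, were held for 4 of the 6 genes: Ccl3, Ccl6, Ccl9 and Ccr1. The promoters of Ccl6 and Ccl9 are printed because these neighbours varied together across the mice. They were identical at 170 of 239 aligned bases (71.1%), against 59.2% to 64.3% for the other 5 pairs of the 4 promoters. Capitals mark runs of at least 10 bases found in both, the longest shared run being 13 bases. The first capital stretch of Ccl9 joins overlapping runs that lie apart in Ccl6, so it is longer than any shared run. Both sequences read 5′ to 3′ on the minus strand, from chr11:83593038-83593337 for Ccl6 and chr11:83578587-83578886 for Ccl9.
Ccl6: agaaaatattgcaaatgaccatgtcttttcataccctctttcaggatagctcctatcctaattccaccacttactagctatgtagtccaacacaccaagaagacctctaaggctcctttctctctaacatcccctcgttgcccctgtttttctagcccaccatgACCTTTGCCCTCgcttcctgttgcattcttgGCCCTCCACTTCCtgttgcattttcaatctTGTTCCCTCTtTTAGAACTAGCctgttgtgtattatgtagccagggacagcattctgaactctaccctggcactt
Ccl9: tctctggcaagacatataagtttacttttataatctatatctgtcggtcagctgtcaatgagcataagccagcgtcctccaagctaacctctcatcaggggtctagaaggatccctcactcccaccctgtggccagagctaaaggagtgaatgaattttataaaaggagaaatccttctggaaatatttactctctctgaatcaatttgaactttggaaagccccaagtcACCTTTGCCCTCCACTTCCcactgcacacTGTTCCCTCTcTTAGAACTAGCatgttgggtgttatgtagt

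Motifs were searched on both strands of the 4 promoters. For NF-kB only a strict form of the consensus was searched, and it was in 0 of the 4, as against 0.411% of all 32851 promoters. Wider forms of the NF-kB consensus were not searched, so this count does not show that they are absent. The C/EBP letters TTGCNNAA were also in 0 of the 4, against 10.8%. The AP-1 letters TGANTCA were in Ccl9 alone, at position -53 from the start (7.81% of all promoters). The letters TATAAA were in Ccl9 alone too (13.6%), at -224, -94 and -92, of which the last pair overlap on opposite strands. The PU.1 core GAGGAA was in Ccl3 and Ccr1 (28.3%). These matches describe letters and not bound sites.

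Levels below are given as the log2 ratio of lung to reference RNA, computed from the scanner files after normexp background correction and loess, and all differences are differences of group means on that log2 scale with their standard error (SE). Calls were made by limma at a Benjamini-Hochberg adjusted p below 0.05 over all 17639 genes. Across arrays, 61.4% to 87.8% of spots were well above background in the lung channel, the median lung intensity of an array was 106 to 216 where its median local background was 62 to 81, and no array had a saturated spot (0). The lung epithelial genes Sftpc, Ager and Scgb1a1 were well above background on all 69 arrays. Arrays shared 18 slides, and slides took 39.2% to 56.6% of the variation of the 5 chemokines within groups, against a median of 61.6% over all genes. Slide was therefore also tried as a fixed block, and its values are given where they change a call. Each array held 1 mouse, and p-values measure the spread between mice handled within this experiment. In bulk lung RNA, fewer cells of a type and less RNA per cell cannot be told apart.

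Within groups the chemokines varied more from mouse to mouse than most genes. The standard deviation (SD) within groups was 0.82 for Ccl4, 0.58 for Ccl3, 0.58 for Ccl9, 0.51 for Ccl6 and 0.35 for Ccl5, against a median of 0.17 over all genes. Over the 69 arrays Ccl3 ran from -4.10 to -1.08, Ccl4 from -2.85 to 1.1, Ccl9 from -0.89 to 1.71, Ccl6 from 4.83 to 7.46 and Ccl5 from -0.86 to 1.12.

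**Figure D1:**
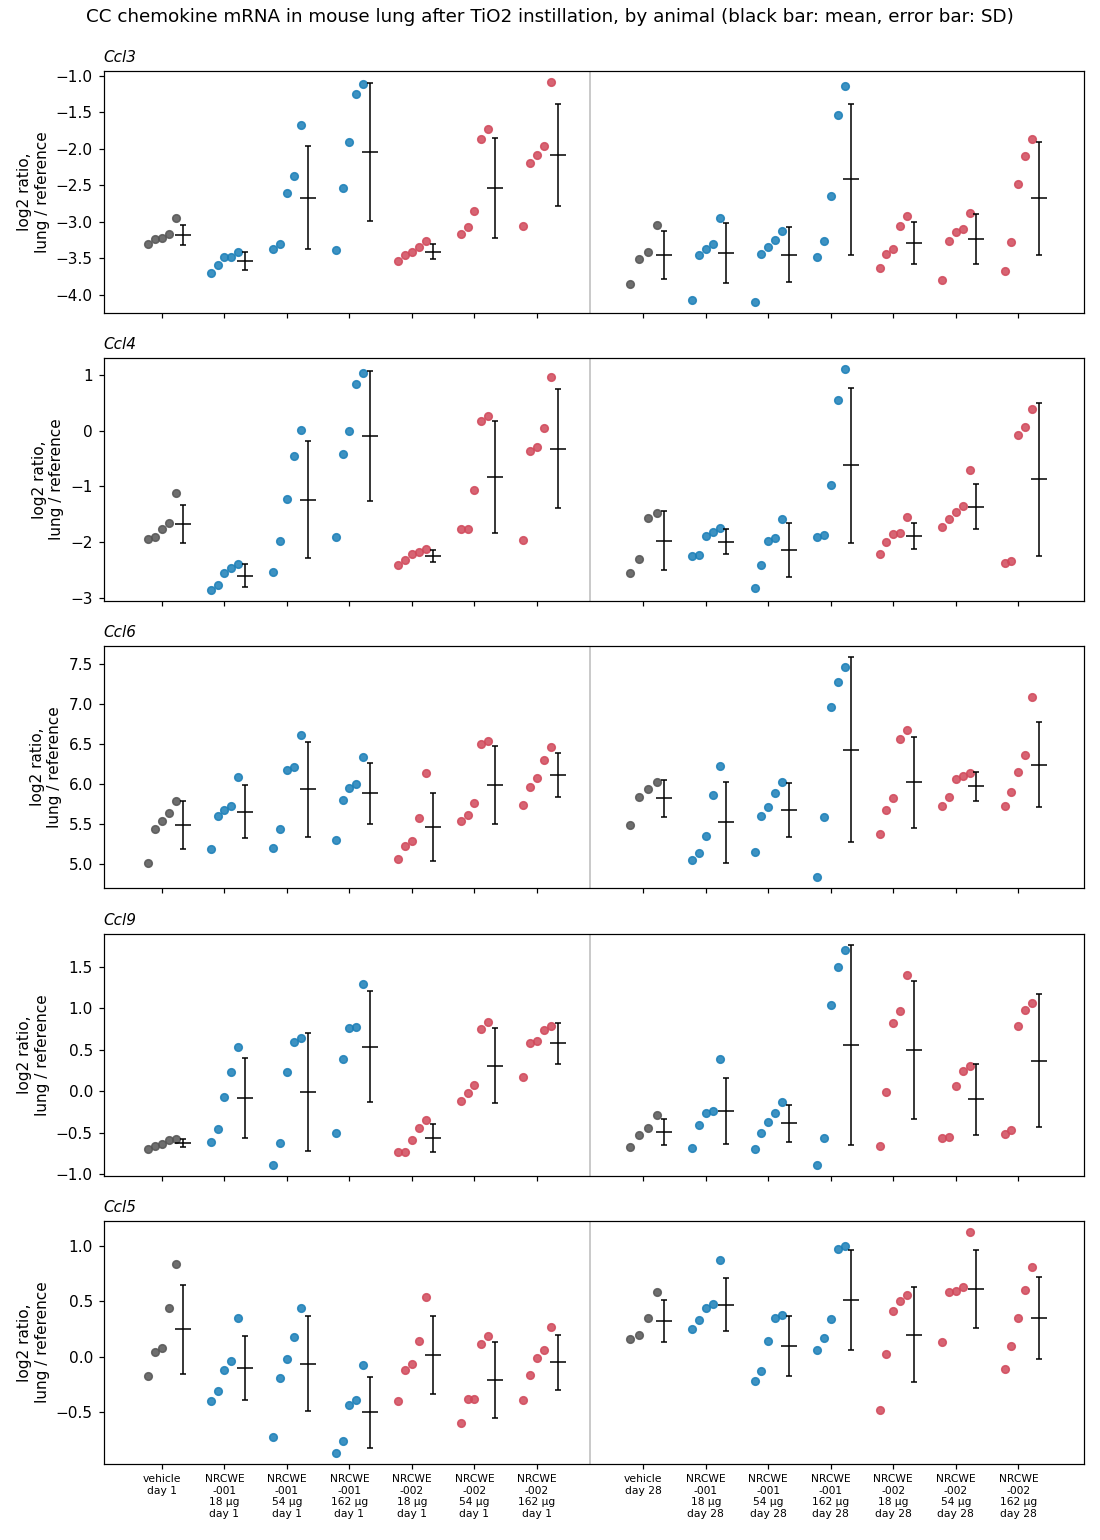
Log2 ratio of lung to reference RNA (y axis) of Ccl3, Ccl4, Ccl6, Ccl9 and Ccl5 in each mouse (points), by particle, dose and day (x axis), with group means and SD in black; n = 5 mice a group and 4 for vehicle on day 28. On day 1 the Ccl3 and Ccl4 points of 18 µg sit low and close together, and those of 54 and 162 µg spread upwards to -1.08 for Ccl3 and 1.03 for Ccl4.

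Ccl4 had the widest range on day 1. In the 5 vehicle mice its level was -1.95, -1.66, -1.11, -1.91 and -1.76. After 18 µg of NRCWE-001 it was -2.55, -2.85, -2.39, -2.76 and -2.46, and after 162 µg it was -0.01, -0.41, 0.83, 1.03 and -1.90 in animals 1 to 5. All 5 mice at 18 µg thus lay below every vehicle mouse, and 4 of the 5 at 162 µg lay above every vehicle mouse, with animal 5 inside the vehicle range. The mice at 54 µg ran from -2.54 to 0.02 with a median of -1.23. For NRCWE-002 the levels at 18 µg were -2.17, -2.22, -2.41, -2.32 and -2.13, again below all vehicle mice. At 162 µg they were -0.37, 0.05, -0.30, 0.96 and -1.96, of which 4 were above all vehicle mice and animal 5 was just below them. The mice at 54 µg of NRCWE-002 ran from -1.76 to 0.27 with a median of -1.06. In the log2 ratios that the authors deposited, the means of Ccl4 on day 1 were -1.85 in vehicle mice, -2.81 at 18 µg and -0.22 at 162 µg of NRCWE-001, and -0.47 at 162 µg of NRCWE-002, in the same order.

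Ccl3 had the same order of groups on day 1, over a smaller range. Its level in the vehicle mice was -3.22, -3.17, -2.95, -3.31 and -3.24. After 162 µg of NRCWE-001 it was -1.91, -2.54, -1.25, -1.11 and -3.39, and after 162 µg of NRCWE-002 it was -2.08, -1.96, -2.20, -1.08 and -3.06. In each of these groups animal 5, which was also lowest for Ccl4, was the lowest. At 18 µg the mice ran from -3.70 to -3.41 for NRCWE-001, all below the vehicle mice, and from -3.54 to -3.27 for NRCWE-002, where 4 of 5 were below them. At 54 µg the medians were -2.60 and -2.85.

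The first question was whether 162 µg changed these genes against the vehicle on day 1. Both particles were set against the same 5 vehicle mice. For NRCWE-001 the mean of Ccl4 stood 1.59 ± 0.51 (SE, 3.00-fold) above the vehicle mean and that of Ccl3 1.14 ± 0.36 (2.20-fold), with limma adjusted p of 0.187 and 0.180. Neither was called. For NRCWE-002 the same differences were 1.36 ± 0.51 (adjusted p = 0.284) and 1.1 ± 0.36 (adjusted p = 0.178).

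Ccl9 was the chemokine whose mice at 162 µg separated fully from the vehicle on day 1. In the vehicle mice it was -0.58, -0.64, -0.59, -0.66 and -0.70. After 162 µg of NRCWE-001 it was 0.78, 0.39, 0.76, 1.30 and -0.51, and after 162 µg of NRCWE-002 it was 0.61, 0.79, 0.74, 0.58 and 0.17. All 10 exposed mice lay above all 5 vehicle mice, a separation that 1.98% of all genes showed with NRCWE-001 and 3.54% with NRCWE-002. The differences were 1.18 ± 0.36 (2.26-fold, adjusted p = 0.151) and 1.21 ± 0.36 (2.32-fold, adjusted p = 0.115). At 54 µg of NRCWE-002 all 5 mice were above the vehicle as well, from -0.12 to 0.84, an order that 1.70% of genes had, with a difference of 0.94 ± 0.36 (adjusted p = 0.653). At 18 µg of NRCWE-002 the mice overlapped the vehicle, from -0.73 to -0.35, whereas 4 of 5 mice at 18 µg of NRCWE-001 were above it, from -0.61 to 0.53.

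Ccl6, the neighbour of Ccl9, differed less. Its vehicle level on day 1 was 5.43, 5.54, 5.64, 5.79 and 5.01. At 162 µg it was 6.34, 5.80, 6.00, 5.95 and 5.30 for NRCWE-001 and 6.46, 6.30, 6.08, 5.74 and 5.96 for NRCWE-002. In both groups 4 of 5 mice were above all vehicle mice, and the differences were 0.39 ± 0.32 (adjusted p = 0.989) and 0.62 ± 0.32 (adjusted p = 0.572).

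Ccl5 went the other way on day 1. Its vehicle level was -0.17, 0.08, 0.84, 0.44 and 0.04, and at 162 µg of NRCWE-001 it was -0.39, -0.86, -0.76, -0.43 and -0.07. There 4 of 5 mice were below every vehicle mouse, and the mean stood at -0.75 ± 0.21 relative to the vehicle (0.596-fold, adjusted p = 0.104). At 162 µg of NRCWE-002 the mice ran from -0.39 to 0.27, overlapping the vehicle, with a difference of -0.29 ± 0.21 (adjusted p = 0.791).

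With no other term in the fit, limma called 0 of the 5 chemokines at 162 µg against the vehicle on day 1 for either particle, where the calls over all genes came to 0.578% with NRCWE-001 and 0.595% with NRCWE-002. At an unadjusted p below 0.05 stood 4 of 5 for NRCWE-001 (Ccl3, Ccl4, Ccl5 and Ccl9; 7.06% of all genes) and 3 of 5 for NRCWE-002 (Ccl3, Ccl4 and Ccl9; 8.93%). Slide as a fixed block changed the first count. It called Ccl3 (1.24, adjusted p = 0.0222), Ccl4 (1.69, adjusted p = 0.0416) and Ccl9 (1.34, adjusted p = 0.0157) higher and Ccl5 (-0.74, adjusted p = 0.0207) lower for NRCWE-001, with 4.38% of all genes called. For NRCWE-002 it called 0 of the 5, with 1.94% of all genes called. Within the 3 slides that held both groups of NRCWE-001, the differences were 1.04 to 1.36 for Ccl9, 1.25 to 1.95 for Ccl4, 0.63 to 1.71 for Ccl3 and -1.61 to -0.22 for Ccl5. Within the 2 such slides of NRCWE-002, they were 1.26 to 1.44 for Ccl9, 1.46 to 1.54 for Ccl4 and 1.03 to 1.24 for Ccl3. These slides held animals 1, 2 and 3 at 162 µg of NRCWE-001 and animals 1 and 3 at 162 µg of NRCWE-002. The ranges thus leave out animal 5 of each group, the lowest for Ccl3, Ccl4 and Ccl9. They also leave out animal 4 of each group, the highest for Ccl3 and Ccl4, and animal 2 of NRCWE-002. Without the block, the lack of calls for NRCWE-001 rested on 1 mouse. Leaving out animal 5 at 162 µg, limma called the same 4 chemokines as with the block, with adjusted p of 0.0139 for Ccl3, 0.0172 for Ccl4 and 0.0213 for Ccl9. Calls over all genes moved too, from 14 to 290 over the 10 fits with 1 mouse left out, against 102 with every mouse.

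The comparison of 162 with 18 µg on day 1 used no vehicle mouse. For NRCWE-001, Ccl4 rose by 2.51 ± 0.51 (5.69-fold, adjusted p = 0.00476) and Ccl3 by 1.5 ± 0.36 (2.83-fold, adjusted p = 0.0253). Ccl9 differed by 0.62 ± 0.36, Ccl6 by 0.22 ± 0.32 and Ccl5 by -0.40 ± 0.21, and none of these was called. For NRCWE-002, Ccl4 rose by 1.92 ± 0.51 (3.80-fold, adjusted p = 0.0372) and Ccl3 by 1.33 ± 0.36 (2.51-fold, adjusted p = 0.0422), while Ccl9 differed by 1.15 ± 0.36 (adjusted p = 0.0922). Limma thus called 2 of 5 chemokines higher for each particle, against 0.595% (NRCWE-001) and 1.18% (NRCWE-002) of all genes called higher, and 0.85% and 1.42% called in either direction. At an unadjusted p below 0.05 stood 2 of 5 (Ccl3 and Ccl4; 9.41% of all genes) and 4 of 5 (all but Ccl5; 12.5%). All 5 mice at 162 µg were above all 5 at 18 µg for Ccl3 and Ccl4 with NRCWE-001 (1.66% of all genes) and for Ccl3, Ccl4 and Ccl9 with NRCWE-002 (4.48%).

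These calls differed in how they stood up to the slide. With slide as a fixed block the NRCWE-001 differences were 2.58 for Ccl4 (adjusted p = 0.000589) and 1.56 for Ccl3 (adjusted p = 0.00155), with 7.88% of all genes called. Within the 4 slides that held both doses, Ccl4 was 2.44 to 3.79 and Ccl3 1.16 to 2.38 higher at 162 µg. For NRCWE-002 the block lowered the differences to 1.18 for Ccl4 (adjusted p = 0.275) and 0.65 for Ccl3 (adjusted p = 0.392), ending both calls, with 2.55% of all genes called, and that of Ccl9 fell from 1.15 to 0.53. Within the 2 slides that held both doses, the differences were 1.80 to 1.83 for Ccl4 and 1.15 to 1.19 for Ccl3. Animal 5 at 162 µg of NRCWE-001 and animals 2, 4 and 5 at 162 µg of NRCWE-002 were on none of these slides. The within-slide ranges leave these mice out. Leaving out any 1 of the 10 mice also ended both NRCWE-002 calls, except animal 5 at 162 µg, whose removal kept them. The NRCWE-001 call of Ccl4 was kept in each of 10 such fits and that of Ccl3 in 5, with an adjusted p of up to 0.166. Over these fits the calls among all genes ran from 43 to 396 for NRCWE-001 and from 32 to 444 for NRCWE-002.

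**Figure D2:**
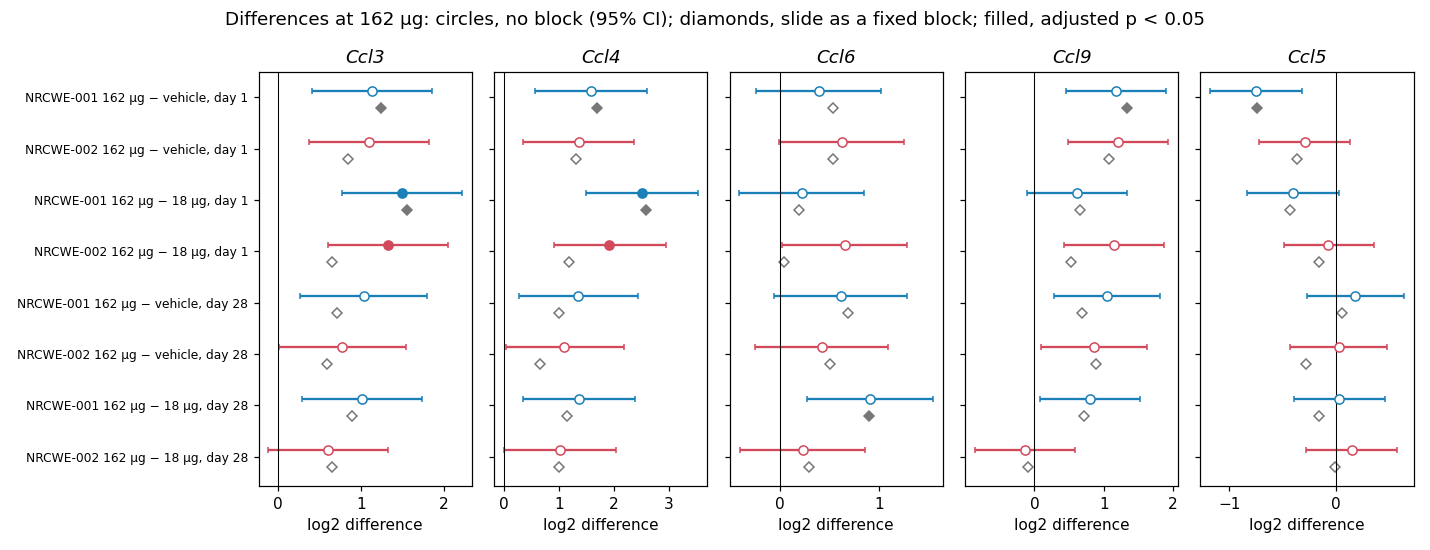
Difference of group means (log2, x axis) for each of 8 comparisons at 162 µg (y axis), in 1 panel a chemokine: circles with 95% confidence intervals come from the fit without a block, diamonds from the fit with slide as a fixed block, and filled symbols mark an adjusted p below 0.05. Ccl3 and Ccl4 are filled for 162 against 18 µg on day 1, from 1.33 to 2.51, and the 2 NRCWE-002 circles are filled where their diamonds are open.

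At the lower doses limma called 0 of the 5 chemokines against the vehicle on day 1. At 18 µg Ccl4 stood at -0.92 ± 0.51 for NRCWE-001 and -0.57 ± 0.51 for NRCWE-002 relative to the vehicle. In the fit with the slide block the first value was -0.88, whereas that of NRCWE-002 turned to 0.14, as did Ccl3 there, from -0.23 to 0.20. Within the 2 slides that held both groups of NRCWE-002, however, Ccl4 was -0.26 and -0.37 and Ccl3 0.05 and -0.12 relative to the vehicle. That all 5 mice lay below all vehicle mice held for Ccl3 and Ccl4 with NRCWE-001 (0.51% of all genes) and for Ccl4 with NRCWE-002 (1.06%). At an unadjusted p below 0.05 stood 0 of 5 for either particle (4.91% and 2.94% of all genes), and limma called 0% of all genes. At 54 µg the counts were 0 of 5 for NRCWE-001 (4.55%) and 2 of 5 for NRCWE-002 (5.83%), namely Ccl9 and Ccl5. The latter stood at -0.45 ± 0.21. The adjusted calls at 54 µg were 0% of all genes with NRCWE-001 and 0.0624% with NRCWE-002. Over the 3 doses together, the moderated F-test for dose on day 1 called Ccl4 for NRCWE-001 (F = 8.45, adjusted p = 0.0213; 0.692% of all genes) but not Ccl3 (F = 6.54, adjusted p = 0.0729). At an unadjusted p below 0.05 stood 4 of 5 for NRCWE-001 (7.87% of all genes). The F-test called 0 of 5 for NRCWE-002 (0.822% of all genes), where 3 had an unadjusted p below 0.05 (7.78% of all genes) and the lowest adjusted p was 0.105, for Ccl9. With slide as a fixed block it called Ccl3, Ccl4 and Ccl9 for NRCWE-001 (7.41% of all genes). Without animal 1, 3 or 4 at 162 µg, or animal 4 at 18 µg, the F-test of NRCWE-001 called 0 of 5, and without animal 5 at 162 µg it called 2, Ccl3 and Ccl4. Over the 20 fits with 1 mouse left out, it called 37 to 299 of all genes, against 122 with every mouse.

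On day 28 the mice of the 162 µg groups fell far apart. After NRCWE-001, Ccl4 was -0.98, -1.91, -1.87, 0.56 and 1.1 in animals 1 to 5, and Ccl9 was 1.04, -0.89, -0.56, 1.71 and 1.5. Ccl3 was -2.65, -3.27, -3.49, -1.54 and -1.14, and Ccl6 was 7.28, 4.83, 5.59, 7.46 and 6.97. In all 4 genes animals 1, 4 and 5 lay above all 4 vehicle mice and animals 2 and 3 within or below their range. The vehicle mice of day 28 ran from -2.56 to -1.48 for Ccl4, from -0.68 to -0.29 for Ccl9, from -3.85 to -3.05 for Ccl3 and from 5.49 to 6.02 for Ccl6. After 162 µg of NRCWE-002, animals 2, 4 and 5 lay above all vehicle mice for these 4 genes. Their Ccl4 was -0.08, 0.39 and 0.06, whereas animals 1 and 3 were at -2.34 and -2.38. Ccl9 was 0.98, 1.06 and 0.79 against -0.47 and -0.52 in the same mice.

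**Figure D3:**
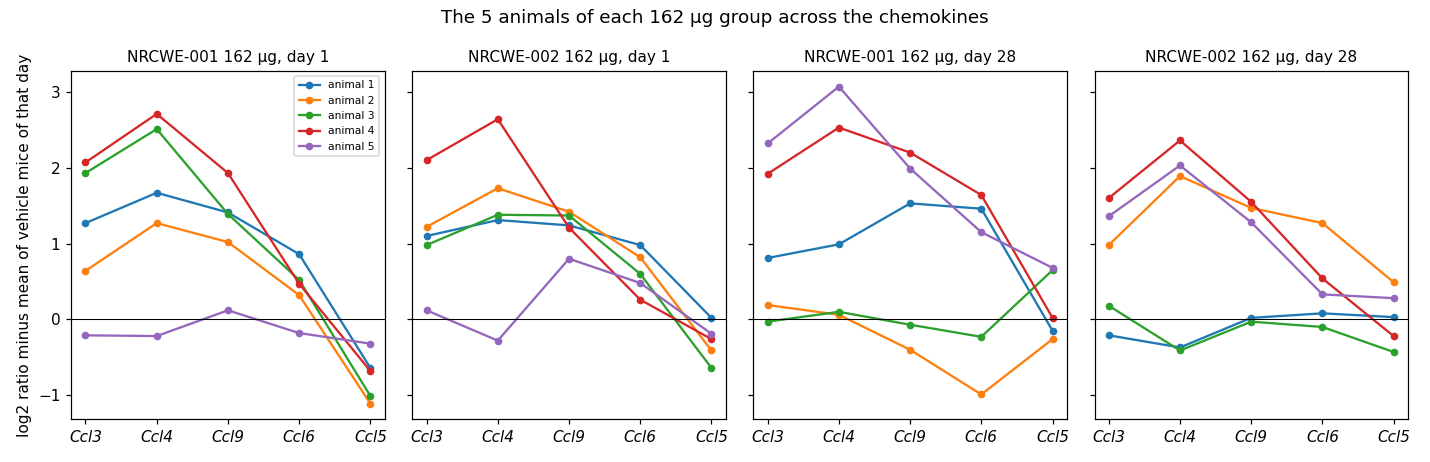
Log2 ratio of each of the 5 mice (lines) of the 4 groups at 162 µg (panels), as the difference from the mean of the vehicle mice of the same day, across Ccl3, Ccl4, Ccl9, Ccl6 and Ccl5 (x axis). On day 1 the order of the lines changes along the axis. In the NRCWE-002 panel of that day animal 4 is the highest for Ccl3 and Ccl4 and the lowest for Ccl6. On day 28, 3 lines lie above 0 and 2 near or below 0 in each panel for Ccl3, Ccl4 and Ccl9.

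The mean differences of day 28 were smaller than this spread. For NRCWE-001 at 162 µg they were 1.35 ± 0.54 for Ccl4, 1.04 ± 0.38 for Ccl3, 1.05 ± 0.38 for Ccl9, 0.61 ± 0.33 for Ccl6 and 0.18 ± 0.23 for Ccl5, with adjusted p of 0.344 or more. Limma called 0 of 5 (0.0454% of all genes), with 3 of 5 at an unadjusted p below 0.05 (8.6% of all genes). For NRCWE-002 they were 1.1 ± 0.54, 0.78 ± 0.38, 0.86 ± 0.38, 0.42 ± 0.33 and 0.03 ± 0.23 in the same order, again with 0 called (0.00567%) and 3 of 5 at an unadjusted p below 0.05 (6.71%). In the fit with the slide block Ccl9 stood at 0.68 for NRCWE-001, and Ccl4 and Ccl5 at 0.65 and -0.28 for NRCWE-002. Beside these differences, the heart muscle markers had a median difference of 1.99 for NRCWE-002 (with 5 of 6 under an unadjusted p of 0.05) and 0.20 for NRCWE-001 (0 of 6), and the endothelium markers one of -0.46 for NRCWE-001 (4 of 6) and -0.19 for NRCWE-002 (0 of 6), with 0 of either list called. Their part in the chemokine differences was not tested. Only 2 slides held both vehicle mice and mice at 162 µg of NRCWE-002, and within them Ccl4 was -0.91 and -0.77, Ccl3 -0.25 and -0.23 and Ccl9 0.06 and 0.16 relative to the vehicle. The mice with high levels were thus on slides without a vehicle mouse of day 28. The only such slide of NRCWE-001 gave 1.57 for Ccl4, 1.20 for Ccl3 and 1.33 for Ccl9.

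Other comparisons of day 28 called few chemokines. At 162 against 18 µg of NRCWE-001, Ccl6 differed by 0.91 ± 0.32 (1.87-fold, adjusted p = 0.179), and 0 of 5 were called (0.941% of all genes), with 4 of 5 at an unadjusted p below 0.05 (8.72%). Slide as a fixed block called Ccl6 (0.90, adjusted p = 0.0472; 3.14% of all genes), as did the fit without animal 2 at 162 µg. With the processed signals of the scanner software in place of the normexp values, the Ccl6 difference was 0.26 (adjusted p = 0.999). For NRCWE-002 the same comparison called 0 of 5 (0% of all genes), with 1 of 5, Ccl4, at an unadjusted p below 0.05 (2.41%). At 18 µg of NRCWE-002, Ccl9 was 1.41, 0.97, -0.66, -0.01 and 0.82 in the 5 mice, 4 of them above all vehicle mice. Its difference of 0.99 ± 0.38 (1.99-fold) had an adjusted p of 0.729. At 18 and 54 µg limma called 0 of 5 chemokines against the vehicle of day 28, with 0.187% of all genes called at 18 µg of NRCWE-001 and 0% in the other 3 groups. At an unadjusted p below 0.05 stood 0 of 5 at 18 µg (8.15% of all genes) and at 54 µg (2.88%) of NRCWE-001, 1 of 5, Ccl9, at 18 µg of NRCWE-002 (6.04%) and 0 of 5 at its 54 µg (4.95%). The F-test for dose on day 28 also called 0 of 5 for each particle (0.476% and 0% of all genes), with 4 of 5 and 1 of 5 at an unadjusted p below 0.05 (9% and 4.33%).

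The particles were compared directly as the mean over their 3 doses. On day 1 NRCWE-002 minus NRCWE-001 was 0.18 for Ccl4 (95% interval -0.41 to 0.76), 0.07 for Ccl3 (-0.34 to 0.49), -0.05 for Ccl9 (-0.46 to 0.37), 0.03 for Ccl6 (-0.33 to 0.40) and 0.14 for Ccl5 (-0.10 to 0.39). On day 28 the differences ran from 0.03 for Ccl5 to 0.28 for Ccl9 (-0.13 to 0.70). With slide as a fixed block those of day 28 were -0.20 for Ccl5 (limma adjusted p = 0.940) and 0.63 for Ccl9 (unadjusted p = 0.0288, adjusted p = 0.768). Limma called 0 of the 5 chemokines on either day, where it called 0.125% of all genes on day 1 and 4.79% on day 28, and without the block 0 of 5 had an unadjusted p below 0.05 (7.31% and 22.3% of all genes). These intervals, without the block, leave room for differences of up to 0.80 on the log2 scale in Ccl4. With the block the SE of Ccl4 was 0.41 in place of 0.29 on either day, so that fit leaves room for larger differences.

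The effect of 162 µg was also compared between the days. For Ccl5 with NRCWE-001 the difference from the vehicle was -0.75 on day 1 and 0.18 on day 28, a change of 0.93 ± 0.31 (limma adjusted p = 0.999). For Ccl3, Ccl4, Ccl6 and Ccl9 the changes lay between -0.36 and 0.22 over both particles. With slide as a fixed block those of NRCWE-001 were -0.68 for Ccl4, -0.66 for Ccl9 and -0.53 for Ccl3, and that of Ccl4 was -0.67 for NRCWE-002, with adjusted p of 0.919 or more. Limma called 0 of 5 for either particle, and 0% of all genes, with 1 of 5 and 0 of 5 at an unadjusted p below 0.05 (4.35% and 6.68% of all genes). The vehicle mice of the days differed by -0.29 ± 0.54 for Ccl4 to 0.33 ± 0.33 for Ccl6, with 0 of 5 called, 0% of all genes called, and 0 of 5 at an unadjusted p below 0.05 (5.74%). The slide block moved these values, and the Ccl4 and Ccl3 differences of the vehicle mice turned to 0.37 and 0.18, and that of Ccl9 was 0.71 in place of 0.15.

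The chemokines varied together between mice of the same group. With group means removed, Pearson's r over the 69 arrays was 0.94 for Ccl3 and Ccl4 and 0.78 for Ccl6 and Ccl9, each of them a pair of neighbours on the chromosome. It was 0.72 for Ccl9 with either Ccl3 or Ccl4, 0.61 for Ccl3 with Ccl6 and 0.57 for Ccl4 with Ccl6. Ccl5 lay between 0.05 and 0.21 with the other 4. With slides removed as well, the first pairs were at 0.95 and 0.77. These values describe arrays that share slides and 1 reference RNA.

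**Figure D4:**
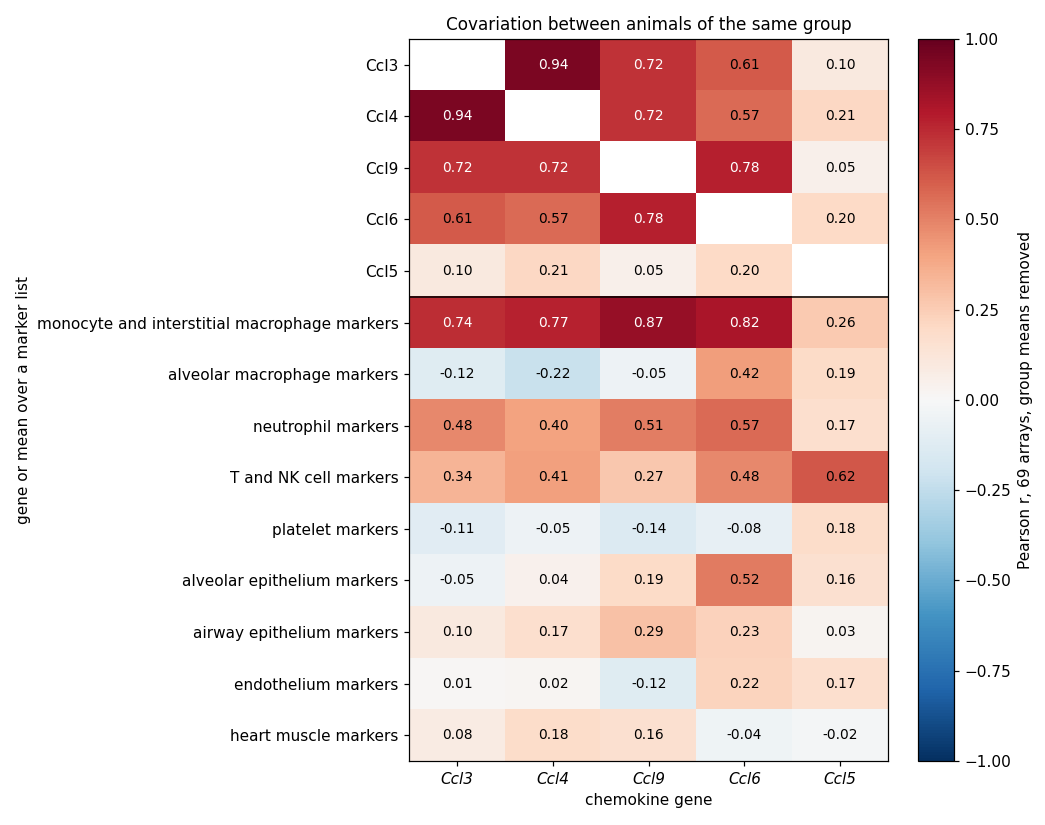
Pearson's r over the 69 arrays with group means removed (colour and printed value) between each chemokine (x axis) and the other chemokines or the mean over a marker list of a cell type (y axis). Ccl3 and Ccl4 share 0.94 and Ccl6 and Ccl9 share 0.78, the monocyte and interstitial macrophage markers lie at 0.74 to 0.87 with these 4 genes, and Ccl5 is highest with the T and NK cell markers, at 0.62.

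The genes whose pattern was most like each chemokine differed by member. Over the 69 arrays, group differences included, Ccl3 was most like Ccl2 (r = 0.94) and Ccl7 (0.91), chemokines that bind CCR2, and Ctps (0.91), a CTP synthase. Ccl4 was most like Ccl2 (0.93), Il18bp (0.90), a secreted antagonist of IL-18, and Ccl7 (0.90). Ccl9 was most like Wfdc17 (0.92), the next protein-coding gene after Ccl4 on chromosome 11, then Slc26a4 (0.88), the anion exchanger pendrin, and Ms4a6d (0.86). Ccl6 was most like Ctsk (0.91), the lysosomal protease cathepsin K, Itgax (0.88), the integrin CD11c, and Bcl2a1b (0.84), which belongs to a family of near-identical genes that 1 probe may not tell apart. Ccl5 was most like Spn (0.76), the leukocyte surface protein CD43, Nkg7 (0.73) and Gzma (0.72), genes of cytotoxic granules. Spearman's rho was 0.80, 0.79 and 0.79 for the Ccl3 genes, 0.75, 0.87 and 0.71 for Ccl4, 0.86, 0.82 and 0.77 for Ccl9, 0.90, 0.88 and 0.85 for Ccl6 and 0.76, 0.75 and 0.70 for Ccl5.

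The markers of the cells that the tissue could hold moved with some chemokines. The mean log2 ratio over 11 of 12 listed monocyte and interstitial macrophage markers (such as Ly6c2, C1qa and Csf1r) ran from 0.92 to 1.1 in vehicle mice of day 1, from 0.91 to 1.47 at 162 µg of NRCWE-001 and from 1.21 to 1.5 at 162 µg of NRCWE-002. On day 28 it ran from 0.94 to 1.18 in vehicle mice, from 0.80 to 2.16 at 162 µg of NRCWE-001 and from 0.96 to 2.01 at 162 µg of NRCWE-002. Its Pearson's r over the 69 arrays, with group means removed, was 0.87 for Ccl9, 0.82 for Ccl6, 0.77 for Ccl4 and 0.74 for Ccl3, against 0.26 for Ccl5. The 11 of 12 neutrophil markers had r of 0.40 to 0.57 with these 4, and their mean ran from 1.11 to 1.63 in vehicle mice of day 1, from 1.26 to 2.35 at 162 µg of NRCWE-001 and from 1.48 to 2.04 at 162 µg of NRCWE-002. Ccl6 also had r of 0.52 with the alveolar epithelium markers and 0.48 with the T and NK cell markers. The 9 of 10 alveolar macrophage markers had r of 0.42 with Ccl6 and -0.22 to -0.05 with Ccl3, Ccl4 and Ccl9, and their mean ran from 3.20 to 3.84 in vehicle mice of day 1 and from 2.38 to 3.39 and 2.97 to 3.73 at 162 µg of NRCWE-001 and NRCWE-002. The 13 of 14 T and NK cell markers had r of 0.62 with Ccl5, and their mean ran from 0.94 to 1.30 in vehicle mice of day 1 and from 0.74 to 1.05 at 162 µg of NRCWE-001. The part of these cells in the differences of the chemokines was not tested.

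Single markers passed the test on day 1. At 162 µg of NRCWE-001 against the vehicle, Cd14, the lipopolysaccharide co-receptor of monocytes, rose by 1.33 ± 0.34 (adjusted p = 0.049), the neutrophil receptor genes Csf3r and Cxcr2 rose by 0.80 ± 0.19 and 0.69 ± 0.16, and the alveolar macrophage genes Fabp1, Ear1 and Siglecf stood at -1.74 ± 0.39, -1.30 ± 0.34 and -0.92 ± 0.24, all called lower. For NRCWE-002, Cd14 rose by 1.58 ± 0.34 (adjusted p = 0.0111), and limma called 0 neutrophil and 0 alveolar macrophage markers, of which 6 of 11 and 4 of 9 had an unadjusted p below 0.05. Cd14 was the only 1 of the 11 monocyte and interstitial macrophage markers called for each particle. Of these 11 markers, 2 for NRCWE-001 and 3 for NRCWE-002 had an unadjusted p below 0.05. Their median differences were 0.08 and 0.23. The slide block called 5 neutrophil markers higher and 4 alveolar macrophage and 2 T and NK cell markers (Gzma and Klrd1) lower for NRCWE-001. For NRCWE-002 the block called 0 neutrophil markers, and 1 alveolar macrophage marker in each direction (Car4 higher, Ear1 lower). Of the T and NK cell, platelet, alveolar epithelium, airway epithelium, endothelium and heart muscle markers, limma called 0 for either particle. At an unadjusted p below 0.05 stood 1 T and NK cell and 1 platelet marker for NRCWE-001, and 1 platelet and 2 airway epithelium markers for NRCWE-002. Their median differences lay between -0.21 and 0.04 for the first 5 lists over both particles and at 0.51 and 0.70 for the heart muscle list. The mean over that list, which includes Myh6 and Myl7, ran from 0.12 to 4.00 over all groups, and its r with the chemokines lay between -0.04 and 0.18 with group means removed.

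Among the other CC chemokine ligands, Ccl7 and Ccl2, ligands of CCR2, had the largest differences on day 1. At 162 µg on day 1, Ccl7 stood 2.16 ± 0.56 (adjusted p = 0.0546) and Ccl2 1.98 ± 0.53 (adjusted p = 0.0615) above the vehicle for NRCWE-001, and 2.14 ± 0.56 (adjusted p = 0.0564) and 2.00 ± 0.53 (adjusted p = 0.0574) for NRCWE-002. Ccl17, a ligand of CCR4, rose by 1.75 ± 0.43 for NRCWE-002 (adjusted p = 0.0325) and stood 1.41 ± 0.43 above the vehicle for NRCWE-001 (adjusted p = 0.143). Ccl17 was the only one of 15 other CC ligands called in either comparison, and 7 and 8 of the 15 had an unadjusted p below 0.05. With the slide block Ccl2, Ccl7 and Ccl17 were called for NRCWE-001 (adjusted p from 0.0103 to 0.0214), and Ccl17 was called for NRCWE-002 (0.0200). The median difference of these 15 was 0.44 for NRCWE-001 and 0.54 for NRCWE-002, against 1.14 and 1.1 for the 5 chemokines and 0.01 over all genes. Of 162 against 18 µg on day 1, limma called 0 of the 15 higher for NRCWE-001 (7 had an unadjusted p under 0.05) and 3 for NRCWE-002, namely Ccl2 (1.96 ± 0.53), Ccl17 (1.67 ± 0.43) and Ccl11 (0.69 ± 0.19), an eosinophil chemokine. None of these 3 calls passed with slide as a fixed block (adjusted p from 0.0748 to 0.273). The block called Ccl22 instead (0.28, adjusted p = 0.0238). The Ccl22 probe was well above background on only 4 arrays of the series, the fewest the filter allowed, and on 0 vehicle arrays. Its call thus rests on a probe near background and is not read as a change of Ccl22. For NRCWE-001 the block called 5 ligands, with Ccl2, Ccl7, Ccl12 and Ccl17 higher and Ccl27a lower.

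**Figure D5:**
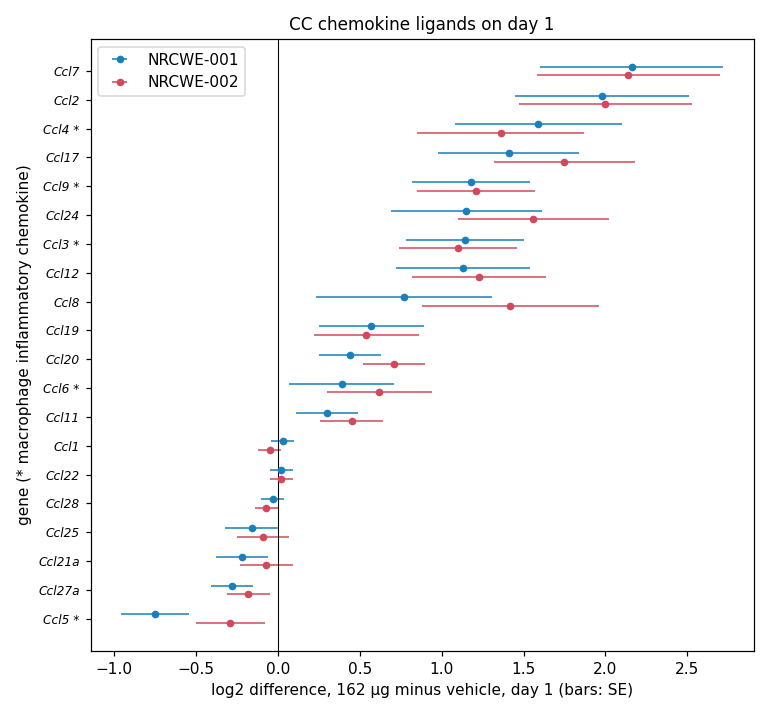
Difference at 162 µg from the vehicle on day 1 (log2, x axis, bars show SE) for the CC chemokine ligands tested (y axis, asterisks mark Ccl3, Ccl4, Ccl5, Ccl6 and Ccl9), for NRCWE-001 and NRCWE-002, which share the vehicle mice. Ccl7 and Ccl2 lie highest, near 2.00 to 2.16, and Ccl5 lies lowest, at -0.75 for NRCWE-001.

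Since Ccr1 was not well above background, no level of it can be set beside its ligands. Ccr3, the eosinophil receptor that binds Ccl5, stood at -0.11 ± 0.05 (adjusted p = 0.647) and -0.02 ± 0.05 (adjusted p = 0.985) relative to the vehicle on day 1, for NRCWE-001 and NRCWE-002 at 162 µg. Of 24 listed genes of signalling below the receptor, such as Gnai2, Pik3cg and Rac2, 23 were tested and limma called 0 for either particle on day 1. Their median differences were 0.07 and 0.10, and 0 and 2 of them had an unadjusted p below 0.05.

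A few genes from a list of cytokines and regulators of CC chemokine induction passed the test on day 1. Il1b, which encodes interleukin 1 beta, rose by 1.62 ± 0.36 (adjusted p = 0.0147) for NRCWE-001 and by 1.67 ± 0.36 (adjusted p = 0.0111) for NRCWE-002 at 162 µg against the vehicle, and all 5 mice of each group were above all vehicle mice. Nfkbiz, an NF-kB cofactor, rose by 0.99 ± 0.21 for NRCWE-001, and Nfkbia, the NF-kB inhibitor, rose by 0.70 ± 0.18 for NRCWE-002 (adjusted p = 0.0366, and 0.164 with slide as a fixed block). These were 2 of the 25 tested genes of the list for each particle (0.578% and 0.595% of all genes), with none lower. An unadjusted p below 0.05 was reached by 11 and 13 of the 25 (7.06% and 8.93% of all genes). At 162 against 18 µg, Csf2 (1.1 ± 0.29), Nfkbiz (0.92 ± 0.21), Csf1 (0.49 ± 0.10) and Irf1 (0.39 ± 0.10) rose with NRCWE-001, and Relb rose with NRCWE-002 (0.61 ± 0.16; adjusted p = 0.0373, and 0.234 with slide as a fixed block). Tnf stood 0.35 ± 0.17 above the vehicle for both particles and was not called.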

How the data were processed

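Lung RNA of 69 mice was measured, 1 mouse per 2-colour Agilent array, with the lung sample in Cy5 and a common reference in Cy3. The scanner files deposited by the authors hold a median intensity and a local background for each spot and channel, read with Agilent Feature Extraction 11.0.1.1, without between-array normalization, and the processed signals of that software. Its flags for outlier and well-above-background spots, deposited beside them, were used as filters, and its flags for saturated spots were only counted. The authors' deposited table of processed values holds log2 ratios of lung to reference, normalized by LOWESS per the methods of the study. Its scale and direction were checked against each array (r = 0.987 to 0.995), and its column medians ran from -0.0586 to -0.00264, so it was centred near 0. It served as an alternative, and whether it was background-corrected is not given in the sources used here.

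Median intensities were taken through limma 3.58.1 (R 4.3.3), with normexp background correction (offset 50, leaving spots whose background was over 10 median absolute deviations from the median, 0 to 470 per array, out of its fit), loess within arrays and the median over repeat spots. Control and outlier spots were left out. Probes entered the tests only where the lung channel stood well above background on at least 4 of 69 arrays. Accessions were matched to symbols of RefSeq GRCm38.p6, used for names, gene order and promoters alone, because the array followed another build (27479 of 41174 probes, 66.7%). Probes of 1 gene that passed were summarised by their median. All 69 arrays entered 1 fit of 14 group means, and p-values were adjusted by Benjamini-Hochberg over 17639 genes within each comparison. The number of arrays limits the precision of each mean. Scripts were tested on simulated data. Promoters were aligned with Biopython 1.88.

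The genes and all lists were chosen with earlier results of these data known. The text names the chemokines and Ccr1, the 3 genes with the highest Pearson's r to each, the called genes of the other CC ligands, signalling and inducer lists at 162 µg on day 1 (up to 6 a list), Ccr3, and up to 3 genes of each marker list by size of change. Tnf, genes that only the slide block called and genes given as examples of a list lie outside that rule and were chosen after their values were seen. The list of other CC receptors is not reported here apart from Ccr3. Listed genes without a tested probe were Arrb2, Nfkb1, Ear2, Cd68, Ly6g, Cd8b1 and Scgb3a2. Alternatives covered the background correction, normalization, dim-probe filter, probe summary, slide, scan day, arrays in the fit and single arrays left out. Slide as a random block used a consensus correlation of 0.469.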

Additional observations from a re-analysis of the deposited data

How the results depend on the processing

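For the single differences and F values of chemokines with an unadjusted p below 0.05, 956 values were computed under the alternatives, of which 888 kept their direction and side of the threshold, 34 lost a call, 34 gained one and 0 reversed. Smaller differences outside that set did turn with slide as a fixed block, such as those of Ccl3 and Ccl4 at 18 µg of NRCWE-002 on day 1. Chemokines called, of 5, changed as follows. For NRCWE-001 at 162 µg against the vehicle on day 1 the count was 4 in place of 0 with slide as a fixed block, slide as a random block or scan day as a fixed block, and 1 (Ccl9) with the arrays of day 1 alone. For NRCWE-002 it was 1 (Ccl9) with the arrays of day 1 alone. For NRCWE-002 at 162 against 18 µg on day 1 it was 0 in place of 2 with either slide block or scan day, 1 (Ccl4) with the authors' log2 ratios, and 3 (Ccl9 added) with median centring or the arrays of day 1 alone. For NRCWE-001 at 162 against 18 µg on day 28 it was 1 in place of 0 (Ccl6) with either slide block. The dose effect of NRCWE-001 on day 1 called 3 with slide as a fixed block, 4 with slide as a random block and 2 with scan day, in place of 1, and that of NRCWE-002 called 1 (Ccl9) with the arrays of day 1 alone. The cause was not tested.

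With single arrays left out, the counts ran from 0 to 4 for NRCWE-001 at 162 µg against the vehicle on day 1 (4 without animal 5 at 162 µg). They ran from 1 to 2 for 162 against 18 µg of NRCWE-001 on day 1 (1, Ccl4, without animals 1, 3 or 4 at 162 µg or animals 1 or 3 at 18 µg) and from 0 to 2 for NRCWE-002 (2 without animal 5 at 162 µg, 0 in the 9 other fits). For NRCWE-001 on day 28 they ran from 0 to 1 (1, Ccl6, without animal 2 at 162 µg) for both 162 against 18 µg and the dose effect. The dose effects of day 1 gave 0 to 2 for each particle, 2 without animal 5 at 162 µg. All other comparisons gave 0 in every such fit.

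Counts over all genes moved more. At 162 µg against the vehicle on day 1 they ran from 40 to 772 for NRCWE-001 (102 as reported) and from 37 to 783 for NRCWE-002 (105), at 162 against 18 µg from 32 to 1390 (150) and from 214 to 961 (250), and between the particles on day 28 from 4 with slide as a fixed block to 4397 with median centring (845). For 162 against 18 µg of NRCWE-001 on day 28 they ran from 36 to 633 (166). For the dose effects of day 1 they ran from 38 to 1307 for NRCWE-001 (122) and from 79 to 734 for NRCWE-002 (145). Single arrays left out moved the first comparison, NRCWE-001 against the vehicle on day 1, from 14 to 290. They moved the dose effects of day 1 from 37 to 299 and from 52 to 265, and 162 against 18 µg of NRCWE-001 on day 28 from 57 to 412. The chemokine counts above are to be read beside these counts. The filters on dim probes moved no chemokine call. Median centring shifted the median of all genes by over 0.1 in 1 comparison, the effect of NRCWE-002 on day 28 against day 1 (-0.128), in which 0 chemokines were called. The fit to the arrays of 1 day is not defined for comparisons between days. No paired analysis was possible because the labels give no replicate numbers that groups share. Groups did share slides and scan days, which were tried as blocks. Signal over background limits Ccr1, and also Ccl6, whose reference channel was well above background on 67 of 69 arrays. With the processed signals of the scanner software, its F for dose with NRCWE-001 on day 28 was 0.20 in place of 3.17.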
